A study of Caenorhabditis elegans with 24 samples.

Results

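By setting daf-16;daf-2 animals against daf-2 animals, the study could ask which transcripts depended on the transcription factor DAF-16 in animals whose insulin signalling was reduced. The comparison was made between the 4 libraries of each genotype, 8 of the 24 samples of the series, and over 14482 of 21689 genes, those whose mean over all libraries was at least 3. Both genotypes carried daf-2(e1370), and daf-16;daf-2 carried daf-16(mu86) as well. Wild-type animals (wt, 4 libraries) and the pair daf-16;daf-2;htz-1 and daf-2;htz-1 (4 libraries each, all with htz-1(bon101)) served as references, and libraries of htz-1 animals entered only the shared estimate of the spread. Each sample was RNA of whole animals on day 1 of adulthood, raised at 20 °C on OP-50-1 bacteria. Each of 4 batch labels was borne by 1 library of every genotype. The deposited values are regularized log2 (rlog) values, on which a difference of 1 is a factor of 2. Differences of genes with few reads are pulled toward 0 by this transformation, and the number of reads behind a value is unknown.

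DAF-2 is the insulin receptor of Caenorhabditis elegans. Active DAF-2 signals through a lipid kinase and the kinases PDK-1, AKT-1 and AKT-2, which phosphorylate the FOXO transcription factor DAF-16 and keep it out of the nucleus. When the receptor is weakened, as by the temperature-sensitive allele e1370, DAF-16 enters nuclei of the intestine and other tissues and raises genes of stress resistance, detoxification and metabolism, while other genes fall. The long life and stress resistance of daf-2 mutants need DAF-16, and mu86 is a deletion in daf-16 that removes its function. The daf-16;daf-2 strain therefore keeps the weakened receptor and lacks its main transcriptional effector in every cell.

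The transcript of daf-16 itself (WBGene00000912, WBcel235 chromosome I, 10750498 to 10776703) had values of 10.23, 10.26, 10.48 and 10.30 in daf-2 replicates 1 to 4 and of 9.99, 9.70, 9.94 and 9.83 in daf-16;daf-2. All daf-16;daf-2 libraries lay below all daf-2 libraries, but the difference, -0.45 ± 0.21 (SE), was not called (limma, adjusted p = 0.109). Weighting the libraries by their quality (array weights, -0.51) or fitting these 8 libraries alone (-0.45) gave a call. The deposited value does not tell apart reads inside and outside the deleted stretch, so this is a weak check of the labels. The daf-2 transcript (-0.13, adjusted p = 0.784) overlapped between the groups, with values from 5.96 to 6.96 in daf-2 and from 6.04 to 7.08 in daf-16;daf-2.

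Whole-animal markers were present in both groups. Lowest and highest values over the 8 libraries were 12.07 and 13.98 for the intestinal proton pump gene vha-6, 8.85 and 9.72 for the intestinal esterase gene ges-1, 13.18 and 16.05 for the sperm gene msp-19, and 13.21 and 14.30 for the oocyte yolk receptor gene rme-2. The neuronal genes rab-3 and unc-119 (4.25 to 6.30) and the pharyngeal myosin gene myo-2 (4.09 to 6.49) were low, and the embryonic genes pes-10 (1.53 to 3.84) and end-1 (1.22 to 2.84) were near the bottom of the scale. In whole animals a smaller amount of a tissue and less RNA per cell of that tissue cannot be told apart. 3 libraries stood apart. The library labelled daf-2 replicate 1 differed from the other 3 of its group by a root mean square of 0.760, against 0.497 to 0.605 for those, with lower sperm and collagen values. The library labelled daf-16;daf-2;htz-1 replicate 3 differed by 0.812 and had a mean over DAF-16-induced genes of 9.91, against 7.92 to 8.10 in the other 3. The library daf-16;daf-2 replicate 1 differed by 0.568, against 0.388 to 0.438 for the others of its genotype, and without it 2220 genes were higher and 1427 lower. List counts of at least 5 genes that moved by over 1.5 times without daf-2 replicate 1 or daf-16;daf-2 replicate 3 are given without that library as well. The labels do not say whether the 4 libraries of a genotype came from separate cultures, and a p-value here measures only how these libraries vary, which may be technical.

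Transcripts differed between the genotypes in both directions, and the widest differences were falls in daf-16;daf-2. At an adjusted p below 0.05 (limma, 2-sided, Benjamini-Hochberg over all genes tested), 2319 genes (16%) were higher in daf-16;daf-2 animals than in daf-2 animals and 1397 (9.65%) were lower. By at least 1 log2 unit 1464 were higher and 659 lower, by at least 2 units 167 and 189, and by at least 3 units 53 and 84. All 4 daf-16;daf-2 libraries lay above all 4 daf-2 libraries for 2197 genes (15.2%) and below them for 1411 (9.74%), and this held for each of the 53 and 84 genes past 3 units. Rises outnumbered falls mainly between 1 and 2 log2 units (1297 against 470) and less so under 1 unit (855 against 738). The excess of rises depended on scaling. It gave way to 1671 higher and 2073 lower after every library had been shifted to a common median (centring), where the median difference of all genes went from 0.03 to -0.13, and to 1911 higher and 2009 lower with quantile normalization, where that median was -0.05. Small differences are therefore read below against these medians. The counts also fell by over 1.5 times without daf-2 replicate 1 (1283 and 891), daf-16;daf-2 replicate 3 (1440 and 913), batch 3 (1373 and 891) or batch 4 (1386 and 873).

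**Figure D1:**
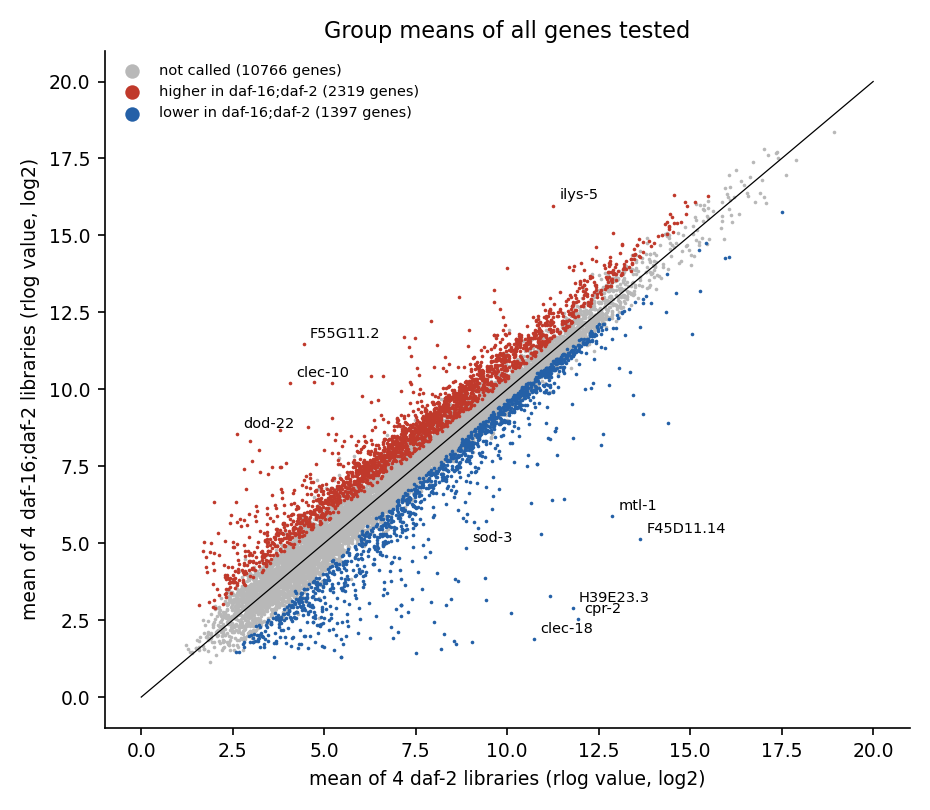
Mean rlog value (log2) of each of the 14482 genes tested in the 4 daf-2 libraries (horizontal) against the 4 daf-16;daf-2 libraries (vertical), with genes called higher in red, called lower in blue and the line of equal values in black. The 53 rises and 84 falls of at least 3 log2 units lie far from the line, and most called genes lie close to it.

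The 10 largest falls took transcripts that were high in daf-2 down to values that mostly overlapped those of wt. The exceptions were mtl-1, which stayed above all wt libraries, and R05H10.7, which lay below them. The gene cpr-2 (WBGene00000782, chromosome V, 16532936 to 16534100), of the cathepsin B family of cysteine proteases, was 11.36, 10.92, 12.80 and 12.64 in daf-2 and 2.88, 2.49, 2.62 and 2.13 in daf-16;daf-2. Its difference of -9.40 ± 1.18 (SE, adjusted p = 3.2e-06) was the widest of all, and in wt it lay between 2.26 and 2.80. The C-type lectin gene clec-18 (chromosome I, 12301424 to 12303157) went from 8.65, 10.31, 12.41 and 11.56 to 1.73, 2.00, 2.12 and 1.66, a difference of -8.86 ± 0.77 (adjusted p = 1.3e-08). For both genes the daf-2 libraries were spread widely and the daf-16;daf-2 libraries lay together near the bottom of the scale, so these differences should not be read as ratios of transcript numbers.

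The metallothionein gene mtl-1 (chromosome V, 6691371 to 6691863), whose product binds metal ions, was 13.31, 12.75, 12.56 and 12.84 in daf-2 and 5.94, 5.99, 5.77 and 5.82 in daf-16;daf-2. Both groups were narrow and far apart, with a difference of -6.99 ± 0.88 (adjusted p = 3.1e-06). The neighbouring genes scl-19 (-6.86 ± 0.99) and scl-20 (-6.73 ± 0.65), which encode secreted proteins of the SCP/TAPS family and lie at 18731991 to 18732772 and 18732798 to 18734481 on chromosome V, fell together, from 7.28 or more in each daf-2 library to 2.07 or less in each daf-16;daf-2 library. The remaining large falls were of genes known only by sequence names. H39E23.3 (-8.90), F56D6.9 (-7.89), R05H10.7 (-7.37) and F17B5.1 (-7.25) had no daf-16;daf-2 value above 4.63. F45D11.14 (-8.51 ± 0.88, adjusted p = 2.1e-07) differed in kind, since its daf-16;daf-2 values of 7.21, 3.35, 3.49 and 6.45 and its wt values of 6.40, 3.10, 8.52 and 6.69 varied by more than 3 log2 units within each genotype.

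**Figure D2:**
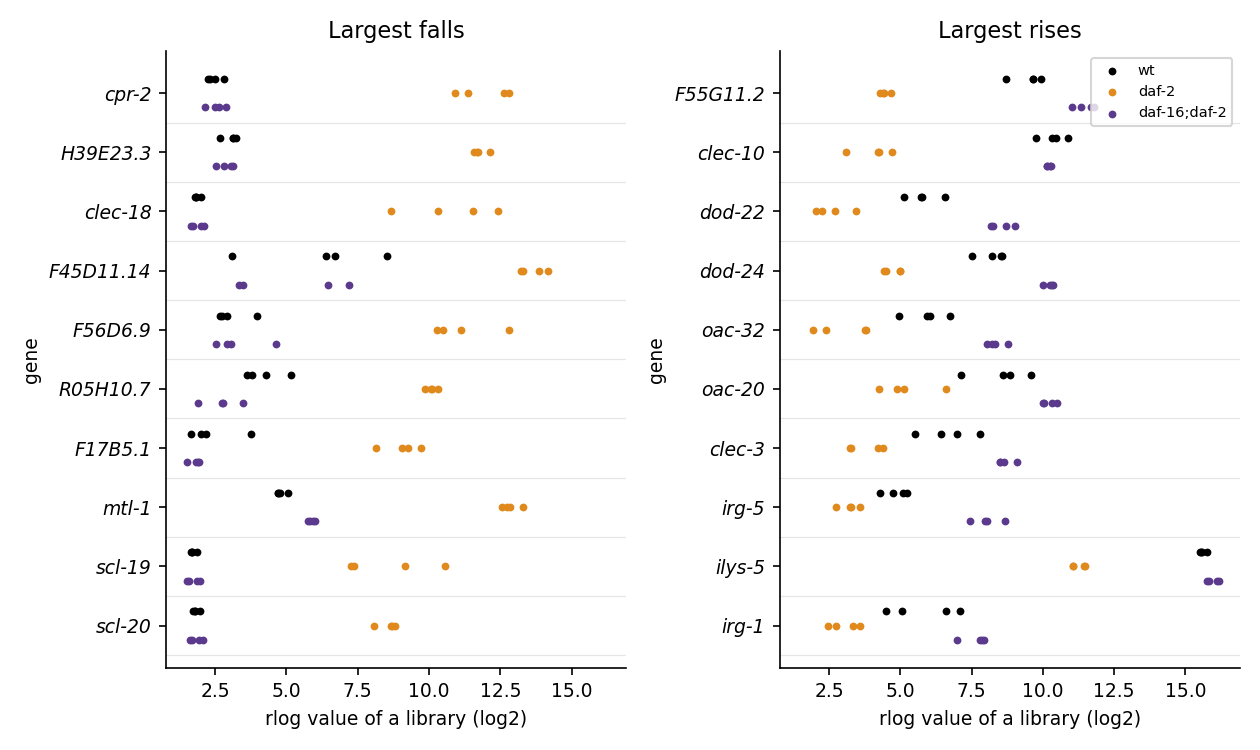
rlog values (log2, horizontal) of the 10 largest falls (left) and the 10 largest rises (right) in each of 4 wt (black), 4 daf-2 (orange) and 4 daf-16;daf-2 (purple) libraries. For the falls the wt and daf-16;daf-2 points lie below the daf-2 points and overlap each other, except for mtl-1 and R05H10.7. For several rises, such as dod-22 and irg-5, the daf-16;daf-2 points also lie above the wt points.

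Genes known to be raised by DAF-16 were lower by the mean and median of their list. Like the other lists, it was chosen with earlier results of these data known, so its fall is no independent check. Of 39 such genes tested, 21 were called lower (53.8%, against 9.65% of all genes tested) and 2 higher (5.13%, against 16%). Their median difference was -1.10 against 0.03 over all genes. The mean over the list was 9.33, 9.35, 9.41 and 9.47 in the daf-2 libraries and 7.65, 7.64, 7.68 and 7.57 in the daf-16;daf-2 libraries, close to the 7.52 to 7.68 of wt. The RNA gene tts-1, a long noncoding RNA known from daf-2 animals, fell from 8.13 or more to 4.77 or less (-5.28 ± 0.53, adjusted p = 1.3e-07). The genes dod-6 (-5.09 ± 0.54) and dod-3 (-4.36 ± 0.46), named for acting downstream of daf-16, fell as well. The members that rose were sesn-1 (0.82 ± 0.16), which encodes sestrin, and daf-36 (0.98 ± 0.21), which encodes an oxygenase of dafachronic acid synthesis. Among 21 genes known to be lower when DAF-16 is active, 9 rose (42.9%) and 2 fell (9.52%), with a median of 0.67.

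Antioxidant enzymes fell in part. The mitochondrial superoxide dismutase gene sod-3 (chromosome X, 17092753 to 17094306), the classical DAF-16 target, was 8.69, 8.84, 8.80 and 9.17 in daf-2 and 4.17, 4.92, 4.82 and 5.50 in daf-16;daf-2, a difference of -4.02 ± 0.65 (adjusted p = 8.2e-05). The cytosolic enzyme gene sod-5 was low in daf-2 (4.14 ± 0.63, SD, n = 4) and lower still in daf-16;daf-2 (1.96 ± 0.22), with a difference of -2.18 ± 0.31 (SE). The main cytosolic dismutase gene sod-1 fell by 0.51 (adjusted p = 0.0119), but was not called when batch 1 (-0.36) or batch 4 (-0.45) was left out or when these groups were fitted alone (-0.51). The mitochondrial gene sod-2 (-0.30) and the extracellular gene sod-4 (-0.34) were not called. Of the catalase genes, ctl-3 fell by 1.55 (adjusted p = 0.00511) and ctl-1 by 0.93 (adjusted p = 0.00636, but not called with batch 1 left out, at -0.70), and ctl-2 (-0.34) was not called. In all, 5 of the 8 dismutase and catalase genes were lower (62.5%, against 9.65% of all genes tested) and none higher.

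Iron storage genes parted. The ferritin gene ftn-1 went from 11.85, 11.08, 11.12 and 11.33 down to 8.22, 7.99, 7.85 and 7.44, a difference of -3.47 ± 0.65 (adjusted p = 3.9e-04). The other ferritin gene, ftn-2, rose by 0.88 ± 0.17 (adjusted p = 6.9e-04), with no overlap between the groups. The second metallothionein gene, mtl-2, had a mean of 13.64 ± 0.69 in daf-2 against 14.49 ± 0.41 in daf-16;daf-2 (SD, n = 4), a difference of 0.85 that was not called (adjusted p = 0.0978). Of 12 small heat shock protein genes, sip-1 fell from 15.49 or more to 14.49 or less (-1.76 ± 0.22, adjusted p = 3.2e-06), and hsp-16.48 fell by 0.90 (adjusted p = 0.0250), a call that ended in 7 alternative settings (-0.90 to -0.73). The gene hsp-12.6, which is often named as a DAF-16 target, did not pass (-0.69 ± 0.42, adjusted p = 0.229). Among 22 cytosolic and mitochondrial chaperone genes, the heat-inducible hsp-70 fell by 1.92 and the chaperonin subunit gene cct-3 rose by 0.80, and no other member was called, while 4 were higher without daf-2 replicate 1.

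Detoxification enzymes changed in both directions, to be read against the 16% higher and 9.65% lower of all genes tested. Of 61 cytochrome P450 genes, 16 were lower (26.2%) and 4 higher (6.56%), with a median of -0.29. The gene cyp-35B1 fell from 7.05, 7.33, 6.78 and 6.70 to 3.23, 2.81, 2.95 and 2.44 (-4.11 ± 0.61, adjusted p = 2.6e-05). The fall of cyp-14A1 (-2.08 ± 0.26) took it below wt as well, by -1.63 (adjusted p = 8.0e-04). A rise was measured for cyp-13A2 (2.66 ± 0.30). Among 60 genes of UDP-glucuronosyltransferases, which attach a sugar acid to small molecules, 17 were higher (28.3%) and 13 lower (21.7%). The gene ugt-53 rose by 3.75 ± 0.24 (adjusted p = 6.6e-11), from 5.36 to 6.64 in daf-2 to 9.49 to 9.99 in daf-16;daf-2, and ugt-26 by 3.22 ± 0.27. The genes ugt-14 (-2.65) and ugt-13 (-1.11) fell. Of 40 glutathione S-transferase genes, 9 were higher (22.5%), led by gst-38 (2.57 ± 0.27), and 8 lower (20%), among them gst-20 (-1.27) and gst-29 (-2.61).

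Lipases and fatty acid desaturases were called in opposite directions. Of 15 lipase genes, 6 were lower (40%, against 9.65% of all genes tested) and none higher (against 16%). The lysosomal lipase genes lipl-1 (11.01, 11.52, 11.48 and 10.89 in daf-2 against 7.21, 6.64, 5.81 and 5.98 in daf-16;daf-2) and lipl-2 (-4.37 ± 0.58) fell the most among those named, lipl-1 by -4.82 ± 0.98 (adjusted p = 9.9e-04), and lips-17 fell by 0.96. Of 16 fatty acid desaturase and elongase genes, 10 were higher (62.5%) and 1 lower (6.25%). The count of higher genes dropped to 4 after centring and to 6 without daf-2 replicate 1 (37.5%, against 8.86% of all genes tested). The stearoyl-CoA desaturase gene fat-7 rose by 1.79 ± 0.23 (adjusted p = 3.3e-06), and fat-3, of polyunsaturated fatty acid synthesis, by 0.70. The member that fell was fat-5 (-1.82 ± 0.32), which encodes a palmitoyl-CoA desaturase. Of 23 genes of glycolysis and gluconeogenesis, 1 was lower (4.35%) and none higher (9 lower with quantile normalization). Of 13 of the glyoxylate cycle and of trehalose and glycerol synthesis, 3 were higher (23.1%) and 2 lower (15.4%). The gene gpdh-1 (chromosome I, 14075837 to 14078211), whose enzyme makes glycerol phosphate and is known for glycerol build-up under osmotic stress, was 6.55, 7.74, 7.29 and 7.64 in daf-2 and 11.10, 11.23, 12.18 and 11.04 in daf-16;daf-2. Its rise of 4.08 ± 0.29 (adjusted p = 7.7e-10) also took it above wt, by 1.88 (adjusted p = 5.7e-04). The trehalose phosphate synthase gene tps-1 fell by 0.71, but was not called with batch 2 or batch 4 left out (-0.66 in both), the trehalase gene tre-3 rose by 1.12, and pck-1, of gluconeogenesis, fell by 1.11.

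Components of the insulin pathway itself changed, kinases and ligands included. Of 23 pathway genes tested, 6 were lower (26.1%, against 9.65% of all genes tested) and 1 higher (4.35%, against 16%). The kinase gene akt-2 was 8.01, 8.18, 8.37 and 8.55 in daf-2 and 6.92, 6.93, 7.29 and 7.11 in daf-16;daf-2, a difference of -1.22 ± 0.18 (adjusted p = 2.3e-05). The genes akt-1 (-0.63 ± 0.12) and pdk-1 (-1.18 ± 0.27), which encode the kinases that act with it, fell as well. The member that rose was sgk-1 (chromosome X, 16254842 to 16262122), a kinase gene of the same family, from 7.69, 7.81, 8.13 and 8.35 to 9.31, 9.57, 9.73 and 9.48 (1.53 ± 0.14, adjusted p = 2.5e-08). Of 20 insulin-like peptide genes, 7 were lower (35%) and 1 higher (5%), with a median of -0.83. The peptide genes ins-11 (-4.22 ± 0.60), ins-23 (-4.03 ± 0.63) and ins-29 (-2.52 ± 0.44) had no overlap between groups, and ins-11 ran from 6.36 to 8.63 in daf-2 and from 2.72 to 3.98 in daf-16;daf-2. The rise of ins-3 (1.14 ± 0.28) was not called without batch 3 (0.81). The ligand gene ins-7, known as a target repressed by DAF-16, was not called (0.84 ± 0.55, adjusted p = 0.262). Among 28 transcription factor genes of longevity pathways, 6 rose (21.4%) and 2 fell (7.14%), shares near those of all genes tested (16% and 9.65%), with rises for pqm-1 (1.01 ± 0.20), a zinc finger factor that binds near genes lowered in daf-2, for the bZIP factor gene zip-2 (0.73 ± 0.16) and for mxl-3 (1.05 ± 0.23), a regulator of lysosomal lipase genes, and a fall of the nuclear receptor gene nhr-62 (-1.53 ± 0.28).

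Genes of CUB-like domain proteins, most of them small secreted or membrane proteins induced on infection, rose together. Of 16 tested, 14 were higher (87.5%, against 16% of all genes tested) and none lower (against 9.65%). Their median was 2.58, against 0.03 over all genes. Of the 16, 9 were also higher than in wt, against 0.801% of all genes tested. The largest rise of all genes was that of F55G11.2 (chromosome IV, 12967445 to 12969289), at 4.28, 4.66, 4.42 and 4.41 in daf-2 and 11.03, 11.70, 11.79 and 11.33 in daf-16;daf-2, a difference of 7.02 ± 0.36 (adjusted p = 1.5e-12). Next to it, dod-22 (12965374 to 12967392) went from 3.46, 2.06, 2.71 and 2.25 to 8.24, 9.03, 8.70 and 8.19 (5.92 ± 0.53). The groups did not overlap for either gene and were separated by more than 4 log2 units.

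The run of genes they belong to was the longest on any chromosome. Between 12910647 and 12981991 of chromosome IV, 11 tested genes in a row were called higher, namely K08D8.5, C32H11.3, C32H11.4, cld-1, dod-24, F55G11.8, dod-22, F55G11.2, F55G11.4, dod-17 and K10D11.2, with differences from 1.11 to 7.02. The span holds 23 annotated coding genes, so genes that were not tested lie among these 11. Of the 11, dod-24 rose by 5.50 ± 0.24, dod-17 by 4.30 ± 0.34, C32H11.4 by 3.83 ± 0.32 and F55G11.4 by 1.74 ± 0.18. In wt dod-24 had an intermediate level, 8.20 ± 0.47 against 4.73 ± 0.31 for daf-2 and 10.23 ± 0.16 for daf-16;daf-2 (SD, n = 4). Over the genome, 32 runs of at least 4 adjacent tested genes were called higher (148 genes) and 11 were called lower (54 genes, longest run 6), of which 2 and 1 held fewer than 4 distinct sets of values. More genes were called higher (16%) than lower (9.65%), which gives more higher runs by itself. The number of runs expected from these shares was not computed. Some higher runs held sperm genes, such as msp-57 and msp-53 on chromosome IV. In another run there, C28D4.4 (0.58), C28D4.7 (0.44) and C28D4.8 (0.56) were not called without daf-2 replicate 1, while C28D4.5 was. The runs and the shares by chromosome were not recounted without that library. Runs of lower genes held family clusters, among them cyp-34A5, cyp-34A6, cyp-34A8 and cyp-34A9 on chromosome V (3950023 to 3970540), where the call of cyp-34A6 (-0.81) ended in each fit that left out a library of these groups or a batch (-0.88 to -0.70), and fipr-22, fipr-23 and fipr-24 on chromosome I (14128591 to 14158078). The run of 6 with F45D11.14 on chromosome II (1004616 to 1024784) held 4 distinct sets of values, since near-identical copies there have the same values. Over chromosomes I to V and X the share of tested genes called higher ranged from 12.3% on chromosome III to 19.9% on chromosome IV, and the share called lower from 8.63% on III to 11% on V, and of 18 genes tested on the mitochondrial genome none was called.

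Other genes of the response to infection rose as well. Of 18 infection response genes, 10 were higher (55.6%, against 16% of all genes tested) and none lower (against 9.65%). The gene irg-5 was 2.74, 3.27, 3.25 and 3.59 in daf-2 and 8.03, 8.67, 7.46 and 7.98 in daf-16;daf-2 (4.82 ± 0.35, adjusted p = 7.7e-10), and irg-1 was 3.59, 2.48, 3.34 and 2.74 against 6.99, 7.88, 7.95 and 7.79 (4.62 ± 0.43, adjusted p = 3.9e-08). Both were above their wt values too, by 3.19 and 1.83. The genes oac-32 (5.35 ± 0.49) and oac-20 (from 5.22 ± 0.99 in daf-2 to 10.22 ± 0.24 in daf-16;daf-2, SD, n = 4), which encode acyltransferase-like membrane proteins, were among the largest rises. Of 111 C-type lectin genes, which encode carbohydrate-binding proteins, many of them secreted, 46 were higher (41.4%) and 16 lower (14.4%), with a median of 0.63. The gene clec-10 was 4.23, 3.08, 4.71 and 4.26 in daf-2 and 10.25, 10.16, 10.13 and 10.29 in daf-16;daf-2 (6.14 ± 0.30), and its wt values of 9.75 to 10.88 were like the latter. Rises of clec-3 (4.89 ± 0.41), clec-31 (4.36 ± 0.28) and clec-160 (2.41 ± 0.19) stood beside falls of clec-60 (-3.61 ± 0.44) and clec-222 (-3.48 ± 0.38).

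Lysozymes, which cut bacterial cell walls, split by gene. The invertebrate lysozyme gene ilys-5 (chromosome X, 6533490 to 6536840) was 11.44, 11.06, 11.47 and 11.07 in daf-2 and 15.77, 16.17, 16.12 and 15.81 in daf-16;daf-2, which made it one of the highest values in the libraries (4.71 ± 0.25, adjusted p = 2.4e-12). Rises followed for lys-5 (2.79 ± 0.24) and lys-6 (1.28 ± 0.25). The gene lys-7, a known target raised by DAF-16, fell from 8.98 to 9.27 in daf-2 to 7.23 to 7.44 in daf-16;daf-2 (-1.79 ± 0.45), and ilys-3 (-3.45 ± 0.50) and ilys-2 (-1.40 ± 0.28) fell too. In all, 5 of 13 lysozyme genes were higher (38.5%, against 16% of all genes tested) and 3 lower (23.1%, against 9.65%). Of 36 antimicrobial peptide genes, 11 were higher (30.6%) and 12 lower (33.3%). Without daf-2 replicate 1, 3 were higher (8.33%, near the 8.86% of all genes tested) and 7 lower (19.4%, against 6.15%). The falls of fipr-24 (-4.53 ± 0.38), abf-2 (-4.48 ± 0.41) and fipr-26 (-4.87 ± 0.56) and the rise of abf-4 (3.23 ± 0.49) had no overlap between groups. Of 22 saposin-like genes, whose products act on membranes, 5 were lower (22.7%), among them spp-2 (-2.79 ± 0.56) and spp-9 (-3.73 ± 0.83), and 2 higher (9.09%).

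Genes of the intestine, the animal's digestive and fat-storing tissue, were mostly higher. Of 29 intestine markers, 18 rose (62.1%, against 16% of all genes tested) and 1, gem-4 (-1.23), fell, with a median of 0.89. The mean over the list ran from 10.50 to 10.78 in daf-2 and from 11.35 to 11.68 in daf-16;daf-2. The gut esterase gene ges-1, a defining intestine marker named here after its values were seen, was not called (9.44 ± 0.25 in daf-2 against 9.16 ± 0.21 in daf-16;daf-2, SD, n = 4, adjusted p = 0.451). The exchanger gene nhx-2 rose from 9.18 ± 0.31 to 10.68 ± 0.27 (SD, n = 4) and the proton pump gene vha-6 by 1.40 ± 0.20 (SE). Its complex, the vacuolar ATPase, which acidifies lysosomes and the gut surface, had 13 of 21 genes higher and none lower, vha-11 (0.93) and vha-20 (0.98) included. Of 23 cathepsin and lysosomal protease genes, 13 were higher (8 after centring and 8 without daf-16;daf-2 replicate 3) and 3 lower. The aspartyl protease gene asp-17 rose from 3.27, 4.13, 2.28 and 3.27 to 7.14, 7.81, 7.31 and 6.96 (4.07 ± 0.33), asp-14 by 1.74 ± 0.23 and cpr-1 by 1.85 ± 0.26. The members that fell were cpr-2, asp-18 (-6.09 ± 0.74) and asp-8 (-0.83 ± 0.20, not called without batch 2, at -0.64). All 4 called aquaporin genes of 10 rose, aqp-8 (1.66), aqp-4 (1.43), aqp-10 (1.19) and aqp-11 (1.05), channels for water and glycerol.

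Genes of protein synthesis and of mitochondria were higher by small amounts, and how many were called depended on the settings. Over all 14482 genes tested, 2319 (16%) were higher. That number was 1671 after centring, 1911 with quantile normalization, 1283 without daf-2 replicate 1 and 1440 without daf-16;daf-2 replicate 3. After centring, the shares of cytosolic ribosomal protein and respiratory chain genes called higher lay below that of all genes. The share of tricarboxylic acid cycle genes was about equal to that of all genes. Of 69 mitochondrial ribosomal protein genes only 4 were higher (5.8%), and 0 after centring. Of 42 translation factor genes 8 were higher (19%), and 3 after centring. Of 84 cytosolic ribosomal protein genes, 25 were higher and none lower (median 0.64), among them rpl-11.2 (1.09 ± 0.18), rpl-25.1 (0.95 ± 0.19) and rpl-42 (1.68 ± 0.38), but 4 were higher after centring, 3 with quantile normalization and 4 without daf-16;daf-2 replicate 3, and 42 with the batch as a block. The mean over these genes varied within genotypes, from 11.93 to 12.96 in daf-2 and from 12.72 to 13.37 in daf-16;daf-2. Of 52 respiratory chain genes, 16 were higher and none lower, 3 after centring, 13 with quantile normalization and 7 without daf-16;daf-2 replicate 3, with asb-2 of the ATP synthase (1.08 ± 0.18) and gas-1 of complex I (0.77 ± 0.17) as examples. Of 26 tricarboxylic acid cycle genes, 9 were higher and none lower, 3 after centring, 8 with quantile normalization, 5 without daf-2 replicate 1 and 3 without daf-16;daf-2 replicate 3, among them sucl-1 (1.03 ± 0.20) and idhb-1 (0.75 ± 0.18). In the endoplasmic reticulum, where secreted proteins fold, 6 of 21 chaperone and sensor genes were higher (28.6%). Of these 21, 2 were lower (9.52%, near the 9.65% of all genes tested), and without daf-16;daf-2 replicate 3 the counts were 5 and none. The chaperone genes hsp-3 (1.35 ± 0.23), crt-1 (1.10 ± 0.18) and dnj-7 (1.00 ± 0.16) rose. The yolk protein genes vit-1 to vit-6, which the intestine makes for oocytes, were not called (0.35 to 0.90), and daf-16;daf-2 replicate 1 was high, with a mean over the 6 genes of 18.04 against 16.58, 16.66 and 16.49. With quantile normalization vit-2 (0.76), vit-5 (0.87) and vit-6 (1.04) were called higher.

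**Figure D3:**
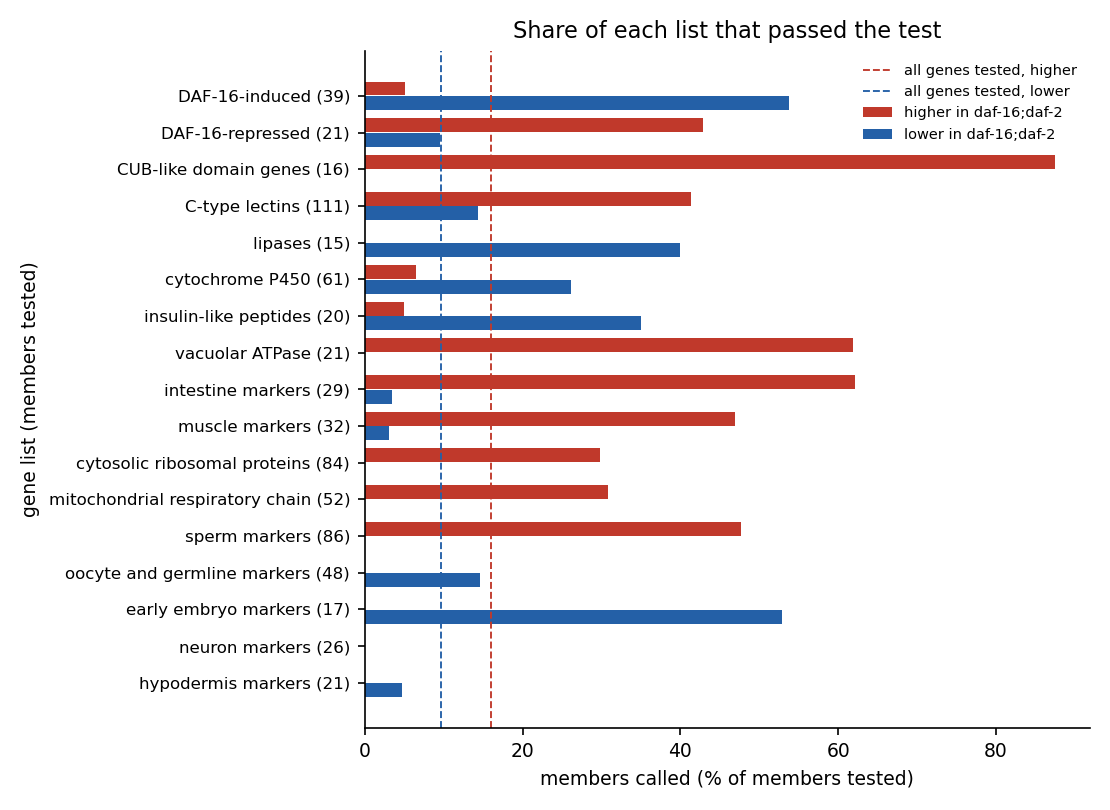
Share of the tested members of 17 gene lists that were called higher (red) or lower (blue) in daf-16;daf-2 relative to daf-2, in percent, with dashed lines at the shares over all genes tested (16% higher, 9.65% lower). CUB-like domain genes, intestine markers and the vacuolar ATPase lie far above the red line, and DAF-16-induced and early embryo genes lie far above the blue line.

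Muscle and sperm markers were more often higher than the 16% of all genes tested, and early embryo markers more often lower than the 9.65%, while oocyte and germline markers lay nearer that share. Of 32 muscle markers, 15 rose and 1, cpna-3 (-0.50), fell, and 8 rose without daf-2 replicate 1 and 7 after centring. The troponin genes tnc-2 (1.35 ± 0.21) and tni-1 (1.40 ± 0.25) and the muscle gene dim-1 (1.04 ± 0.20) rose. Of 86 sperm markers, 41 were higher and none lower, with a median of 0.99. The mean over these genes was 8.69, 10.29, 10.32 and 10.03 in daf-2 and 11.06, 10.56, 10.79 and 10.56 in daf-16;daf-2, with daf-2 replicate 1 the lowest. Without that library 9 were higher (10.5%, against 8.86% of all genes tested) and the median was 0.57, and without daf-16;daf-2 replicate 3 there were 20. The sperm genes nspd-7 (1.36 ± 0.30), msp-49 (1.48 ± 0.34) and ssp-19 (1.40 ± 0.33) rose, and without batch 1 the last 2 were not called (0.85 and 0.98). Of 48 oocyte and germline markers, 7 were lower (14.6%) and none higher, and without daf-2 replicate 1 2 were lower (4.17%, against 6.15% of all genes tested), as without daf-16;daf-2 replicate 3. The eggshell genes cpg-3 (-1.47 ± 0.25) and egg-3 (-0.62 ± 0.15) fell, and so did the eggshell chitin synthase gene chs-1 (-0.75 ± 0.21), which was not called once batch 2 (-0.75), batch 3 (-0.66), daf-2 replicate 1 (-0.60) or daf-16;daf-2 replicate 3 (-0.67) was left out.

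The mean over early embryo markers did not overlap between groups, but most of these genes taken singly did. Of the 17, 7 had all daf-16;daf-2 libraries below all daf-2 libraries, as had 9.74% of all genes tested. The mean over 17 such genes was 6.24, 5.85, 5.38 and 5.71 in daf-2 and 4.65, 4.83, 4.57 and 4.52 in daf-16;daf-2, and wt lay between 4.72 and 5.01. Of these genes, 9 were lower and none higher (median -1.08), and 5 were lower without daf-2 replicate 1 (median -0.81). The gene sdz-24 fell from 7.26 or more to 4.15 or less (-4.72 ± 0.65), and hnd-1 (-2.42 ± 0.49), a transcription factor gene of the mesoderm, and vet-2 (-1.19 ± 0.25) fell as well. In animals with both daf-2(e1370) and htz-1(bon101), 11 of the 17 genes were higher with daf-16(mu86) and 1 was lower. Of all genes tested, 12.8% were higher and 17.4% lower in those animals. The gene sdz-24 differed there from most of the early embryo list. It was 8.60 to 9.20 without daf-16(mu86) and 3.17, 2.81, 7.01 and 3.19 with it (replicates 1 to 4). The part that embryos held inside the animals had in these values was not tested. Neuron markers (26 tested) had no called gene, pharynx markers 3 higher of 11, and among 21 hypodermis markers the only called gene was the protease inhibitor gene cpi-1 (-2.09 ± 0.30).

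**Figure D4:**
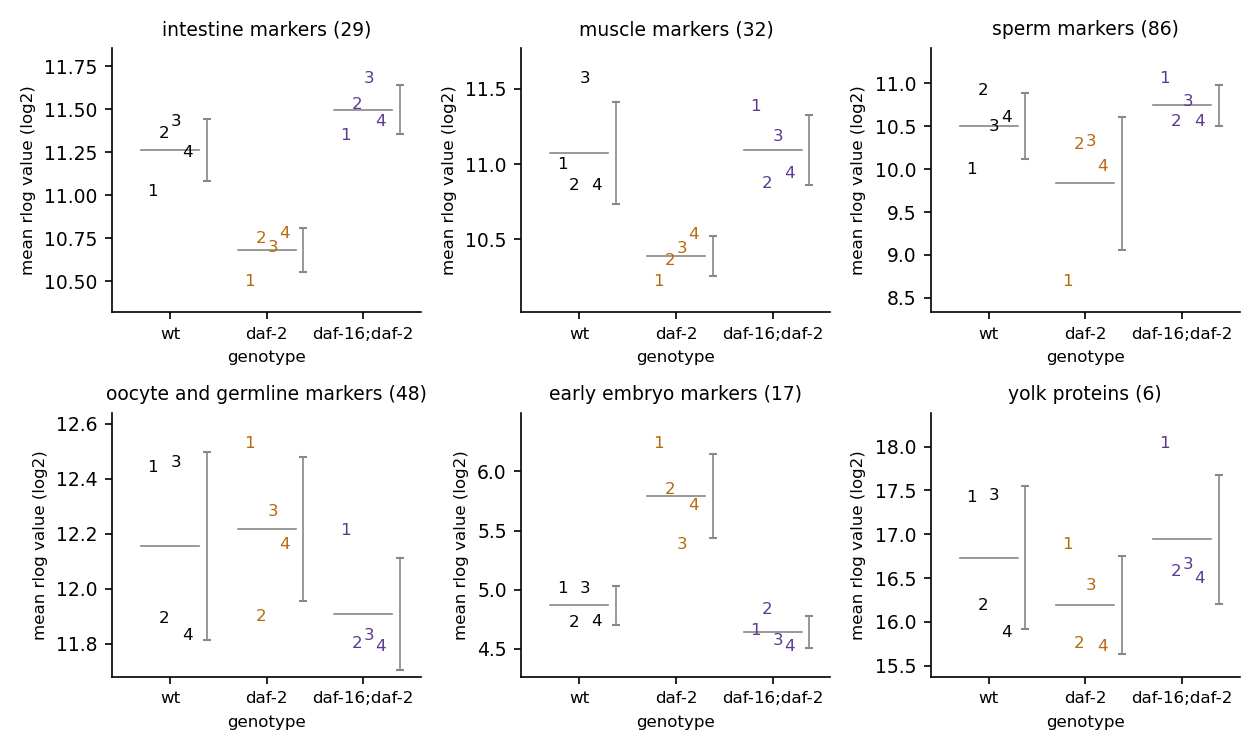
Mean rlog value (log2, vertical) over 6 lists of marker genes in each library of wt, daf-2 and daf-16;daf-2, each library drawn as its replicate number, with the group mean as a line and the SD of the 4 libraries as a bar beside it. The daf-2 libraries lie below daf-16;daf-2 for intestine, above it for early embryo genes, and daf-2 replicate 1 lies apart for sperm genes at 8.69.

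Few genes were called between daf-16;daf-2 and wt, which does not show the genotypes to be alike. The counts against wt were not recomputed in the alternative settings. Relative to wt, 116 genes (0.801%) were called higher and 56 (0.387%) were called lower. Since both comparisons use the daf-16;daf-2 libraries, values are given side by side. Of the 2319 genes higher than in daf-2, 86 were also higher than in wt and 6 lower, with a median difference from wt of 0.42, and of the 1397 lower genes 24 were also lower than in wt and 6 higher (median -0.19). Among the falls, differences from wt were 0.06 for cpr-2, 0.01 for clec-18, 0.01 for scl-20, -0.49 for sod-3 and 1.07 for mtl-1, none of them called. For cpr-2, clec-18 and scl-20 both genotypes lay near the bottom of the scale, where a small difference shows little. For mtl-1 all daf-16;daf-2 values (5.77 to 5.99) lay above all wt values (4.69 to 5.07). Several rises went past wt. The gene dod-22 was 2.74 above wt (adjusted p = 0.00593), dod-24 2.03 (adjusted p = 1.5e-05), irg-5 3.19 (adjusted p = 2.9e-06), asp-14 2.24 (adjusted p = 1.2e-06) and ugt-53 1.64 (adjusted p = 2.1e-04). The protease gene asp-8 went the other way, with differences from wt of -2.71 in daf-16;daf-2 (adjusted p = 2.9e-09) and -1.87 in daf-2.

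The same daf-16 allele was also compared in animals with the htz-1 allele bon101. The gene htz-1 encodes H2A.Z, a histone variant found at the starts of genes. In daf-16;daf-2;htz-1 against daf-2;htz-1, which share no library with the first comparison but enter the same estimate of the spread, 1853 genes (12.8%) were higher and 2518 (17.4%) lower, and 1778 and 2430 without daf-16;daf-2;htz-1 replicate 3. Of the 2319 genes higher without the htz-1 allele, 510 were higher with it (22% of the first list and 27.5% of the second) and 529 were lower. Of the 1397 lower genes, 522 were lower (37.4% and 20.7%) and 150 higher. Among genes that moved by at least 2 log2 units without the htz-1 allele, 99 of 167 rises (59.3%) and 147 of 189 falls (77.8%) were called the same way with it, 99 and 161 without replicate 3. Across genes the correlation of both differences was 0.23 over all 14482 genes and 0.82 over the 356 that moved by at least 2 units. Both values describe the genes only, as genes are not independent. The 356 were picked by a wide first difference, and leaving out small values of it raises a correlation by itself. For 134 of the 356 (37.6%) the difference between the backgrounds was itself called, against 26.5% of all genes tested. The first difference is part of that contrast, so picking wide values of it raises this share by itself. The shares therefore do not show that genes with wide differences depend more on the background.

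The library daf-16;daf-2;htz-1 replicate 3 set how far DAF-16 targets fell there. In daf-16;daf-2;htz-1 replicates 1 to 4 mtl-1 was 8.87, 7.26, 14.51 and 7.28, cpr-2 was 3.62, 3.85 and 3.40 in replicates 1, 2 and 4 and lay 8.99 above their median in replicate 3, and sod-3 was 2.31, 2.15, 7.23 and 3.40. In that library these genes lay near the daf-2;htz-1 values of 15.21 to 15.65 for mtl-1 and 12.91 to 13.50 for cpr-2, and sod-3 lay between the 2 sets. With all libraries the differences were -5.98 for mtl-1, -7.27 for cpr-2 and -5.55 for sod-3, and without it -7.66, -9.52 and -6.70. The same library widens the shared estimate of the spread for these genes in the first comparison, where their SEs (0.65 to 1.18) exceed the SDs within daf-16;daf-2 (0.10 to 0.55).

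**Figure D5:**
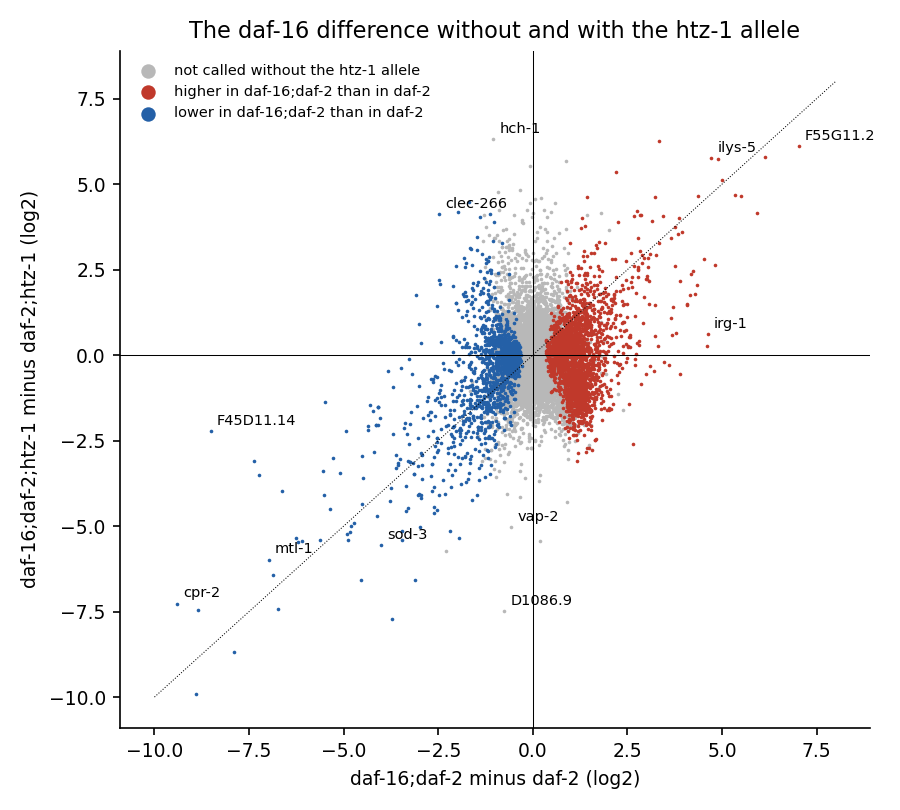
Difference of daf-16;daf-2 minus daf-2 (log2, horizontal) against daf-16;daf-2;htz-1 minus daf-2;htz-1 (log2, vertical) for the 14482 genes tested, coloured by their call in the first comparison, with the line of equal differences dotted. F55G11.2 and mtl-1 lie near the dotted line, F45D11.14 and irg-1 lie off it, and many genes with small rises in the first comparison lie below 0 in the second.

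The difference between the 2 backgrounds was tested itself. The daf-16 difference was higher with the htz-1 allele for 1449 genes (10%) and lower for 2389 (16.5%), and 1511 and 2498 without daf-16;daf-2;htz-1 replicate 3. The rises of F55G11.2 (7.02 without and 6.11 with the allele), clec-10 (6.14 and 5.80) and clec-3 (4.89 and 5.72) did not differ by this test, which does not show them to be equal. The rise of irg-1 was 4.62 without the allele and 0.61 with it, a difference of -4.01 ± 0.61 (adjusted p = 6.5e-05), and its daf-2;htz-1 values of 5.65 to 6.35 were already high. Rises of dod-17 (-2.52), irg-5 (-2.17), gpdh-1 (-2.58) and sgk-1 (-0.71) were smaller with the allele and that of ilys-5 larger (1.05). Among the falls, that of F45D11.14 was smaller by 6.29 ± 1.25 (adjusted p = 8.1e-04), with 9.52 or more in each daf-16;daf-2;htz-1 library, and those of R05H10.7 (4.26) and F17B5.1 (3.73) were smaller as well. Without daf-16;daf-2;htz-1 replicate 3 these values were 5.55, 2.61 and 2.48, all called.

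Other genes with a wide difference were called in opposite directions in the 2 backgrounds, or in 1 of them. The hatching protease gene hch-1 was near the bottom of the scale in daf-2 and daf-16;daf-2 (1.80 to 3.79) and at 10.13 to 10.56 in daf-16;daf-2;htz-1. Its rise with the allele was 6.31, and its difference without the allele was not called (-1.04, adjusted p = 0.247). The genes clec-266 (-2.48 and 4.13), fbxc-51 (-1.98 and 4.18) and ham-1 (-1.68 and 4.46) fell without the htz-1 allele and rose with it. The largest negative values were those of D1086.9 (-6.72), the pseudogenes WBGene00014732 (-5.62) and WBGene00020598 (-5.21), F33H12.7 (-5.25) and vap-2 (-4.46), which fell with the allele. Of these, only F33H12.7 was called without the allele (2.66), and it was not called with batch 2 (2.12), batch 3 (1.98) or batch 4 (2.52) left out. Sperm and embryo markers parted in the same way as these genes. Of 86 sperm markers 41 rose without the allele, while with it 1 rose and 32 fell (13 without daf-16;daf-2;htz-1 replicate 3), and of 17 early embryo markers 9 fell without the allele, while with it 11 rose and 1 fell. The difference itself was called lower for 59 sperm markers and higher for 12 early embryo markers, and without that replicate for 52 and 12. Over all genes tested it was called lower for 16.5% and higher for 10%. Of all genes tested, 16% rose and 9.65% fell without the allele, and 12.8% rose and 17.4% fell with it. The means over sperm markers were 7.82 to 8.20 in daf-2;htz-1 and 6.57 to 7.65 in daf-16;daf-2;htz-1, below all libraries of the other background. The part of gamete and embryo content in the other differences was not tested.

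Some values are uncertain. The libraries do not mark strand, and akt-1, clec-266, clec-3, cpg-3, crt-1, ctl-2, daf-36, egg-3, fat-5, gas-1, gpdh-1, lips-17, oac-20, pdk-1, sdz-24, sod-2, sod-3, sod-4, sucl-1, tnc-2, vap-2, vit-2 and zip-2 share part of their span with a protein-coding gene of the other strand, whose reads cannot be told apart from theirs. Reads of near-identical copies can be split between genes, as among the major sperm protein, yolk protein, catalase and hsp-16.48 families, and 95 tested genes, 50 of them called, had values identical to those of another gene.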

How the data were processed

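The authors deposited 1 table of rlog values, on a log2 scale, for 24 libraries of whole animals (6 genotypes, 4 each), made from SMART-Seq2 libraries per the labels' protocols. The submitters' processing notes name bcl2fastq 2.20, kallisto 048.0 and WBcel235 without their roles, with the tool behind the rlog step not given in the sources used here. Reads per library are unknown, so no counting interval is given. Genes with a mean of at least 3 were fitted with limma 3.58.1 in R 4.3.3, with 1 mean per genotype over all 24 libraries, 18 residual degrees of freedom and an intensity trend in the prior. P-values are 2-sided and Benjamini-Hochberg adjusted over 14482 genes, with a threshold of 0.05. The script was tested on simulated data. Positions come from Ensembl release 115 on WBcel235.

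Genes were named as the 10 largest rises and falls without overlap, up to 3 called members per list and direction, members of lists of at most 12, the 5 largest differences in each direction between the htz-1 backgrounds, members of runs of neighbours and a few classical targets. Members and lists were chosen with earlier results of these data known. Lists are described by counts and medians, with no test. Replicate numbers pair libraries through the labelled batch. The deviations of same-numbered daf-2 and daf-16;daf-2 libraries from their group means correlated at 0.09, -0.02, 0.03 and 0.15, and batch as a term was an alternative. Other alternatives changed scaling, the filter, the variance prior, library weights and the libraries in the fit. Promoter sequences were not analysed here.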

Additional observations from a re-analysis of the deposited data

Results flagged for a closer look

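In 49 of 506 groups of 4 libraries 1 library stood far from the other 3 by Dixon's criterion, which chance meets in about 1 in 20 groups. Each value below is that library's distance from the median of the other 3, in log2 units. None of these patterns was tested for a cause.

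Of these, 17 were in daf-16;daf-2 replicate 1. The library daf-16;daf-2;htz-1 replicate 3 had 12, being high for cpr-2 (8.99), scl-19 (6.77), R05H10.7 (6.59), D1086.9 (5.77), F17B5.1 (5.01), clec-18 (4.77), scl-20 (3.91), F45D11.14 (2.95) and WBGene00014732 (2.89) and low for dod-22 (-1.68). Its means over DAF-16-induced genes (1.91) and early embryo markers (0.88) were high as well. The same genotype was low for daf-16 in replicate 1 (-1.07) and for hch-1 in replicate 4 (-0.39).

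In daf-16;daf-2 replicate 1 the yolk genes vit-1 (1.78), vit-3 (1.71), vit-4 (2.04) and vit-5 (1.55), hsp-12.6 (1.21) and chs-1 (0.77) were high, and irg-1 (-0.89), mtl-2 (-0.81), fipr-26 (-1.63), cyp-34A8 (-0.54) and nhx-2 (-0.55) were low. Its means were high for yolk proteins (1.46), pharynx (0.42), oocyte and germline (0.41) and DNA replication genes (0.23) and low for saposin-like proteins (-0.51) and nuclear hormone receptors (-0.07). In daf-16;daf-2 replicate 2 cpna-3 was high by 0.06. In replicate 3 vet-2 was low (-0.94), and the means of tricarboxylic acid cycle genes (0.28) and translation factors (0.13) were high.

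In daf-2 replicate 1 D1086.9 (2.99), clec-266 (2.81), hnd-1 (1.16) and C32H11.4 (0.87) were high, and the means of collagens (-1.23) and neuron markers (-0.29) were low. In daf-2 replicate 2 daf-36 (0.92) and the mean of lipases (0.35) were high and ctl-1 (-0.62) and the mean of linker histones (-0.22) low, and in replicate 4 clec-222 (-0.90) was low. In daf-2;htz-1, replicate 3 was low for F45D11.14 (-0.34) and oac-32 (-2.37), and replicate 1 high for clec-10 (0.83).

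For 18 named genes the daf-16 difference itself differed between animals with and without the htz-1 allele (limma, adjusted p below 0.05). With the allele it was higher for hch-1 (7.35), clec-266 (6.61), F45D11.14 (6.29), fbxc-51 (6.16), ham-1 (6.15), R05H10.7 (4.26), F17B5.1 (3.73) and ilys-5 (1.05). It was lower for D1086.9 (-6.72), WBGene00014732 (-5.62), F33H12.7 (-5.25), WBGene00020598 (-5.21), vap-2 (-4.46), irg-1 (-4.01), gpdh-1 (-2.58), dod-17 (-2.52), irg-5 (-2.17) and sgk-1 (-0.71). For sod-3, H39E23.3 and F56D6.9 the difference was not called with all libraries and was called without daf-16;daf-2;htz-1 replicate 3 (-2.68, -2.72 and -3.20).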

How the results depend on the processing

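Of 140 named genes called, 11 lost their call in at least 1 of 21 alternative settings, and 137 kept it in all settings other than those that left out a library or batch. None of the 160 named genes reversed, and 5 of the 20 not called were called in some setting. With 1 library or batch left out, genes higher in daf-16;daf-2 numbered 1283 to 2441 and genes lower 873 to 1427. For the htz-1 background these ranges were 1187 to 2205 and 1407 to 2682, and for the difference between backgrounds 757 to 1759 higher and 1506 to 2610 lower. Array weights gave 3525 and 4235 in the htz-1 background and 2590 and 3683 for the difference between backgrounds, where centring gave 2256 higher. The cause was not tested. With the replicate block, daf-16;daf-2 animals had 2444 higher and 1435 lower genes, and no named call changed. Of 3465 list values recomputed 453 moved, 285 of them with a library or batch left out. The promoter motif alternative was not run. Read depth is unknown, which limits what low values can show.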

Other observations

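Several large gene families had members on both sides, to be read against the 16% higher and 9.65% lower of all genes tested. Of 160 F-box genes, which encode adaptors of protein degradation, 33 were lower (20.6%) and 12 higher (7.5%) in daf-16;daf-2 animals than in daf-2 animals (median -0.30, against 0.03 over all genes). Of 179 nuclear hormone receptor genes, 20 were higher and 7 lower, both shares below the shares over all genes, and 14 and 14 after centring. Of 130 collagen genes of the cuticle, 18 were higher (13.8%) and 13 lower (median 0.19), near the shares over all genes. With daf-2 replicate 1 left out 6 were higher and 14 lower, with a median of -0.07, with daf-16;daf-2 replicate 3 left out 7 and 13, and with quantile normalization 15 and 23. Core histone genes had 9 of 38 higher and none lower, or 7 higher and 1 lower after centring and 4 higher without daf-16;daf-2 replicate 3.

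Autophagy genes had 5 of 28 lower (17.9%, against 9.65% of all genes tested) and none higher. The counts were 9 lower after centring, 3 lower and 1 higher without daf-2 replicate 1, and 3 lower without daf-16;daf-2 replicate 3. In animals with the htz-1 allele 10 were higher and 3 lower, and the difference between the backgrounds was called higher for 10 and lower for none. Of all genes tested, 12.8% were higher and 17.4% lower with the allele. The difference between the backgrounds was called higher for 10% of all genes and lower for 16.5%. DNA replication and cell cycle genes had 5 of 40 lower (12.5%, 3 without daf-2 replicate 1 and 11 with quantile normalization) and none higher without the allele and 10 higher and 1 lower with it. Of 66 neuropeptide genes, 2 were higher (3.03%) and 5 lower (7.58%) without the allele, both below the shares over all genes. Without daf-2 replicate 1, or without daf-16;daf-2 replicate 3, none was higher and 3 were lower. With the allele none was higher and 43 were lower (41 without daf-16;daf-2;htz-1 replicate 3). No proteasome gene of 33 was lower and 1 was higher.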
